A study of Mus musculus with 16 samples.

Results

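The genes described here are 31 enzymes, regulators and carriers of the tricarboxylic acid (TCA) cycle, of pyruvate entry into it and of the aspartate and glutamate shuttles, taken by gene symbol from a table of 20601 listed genes. All 31 were in the table, and 30 had a level high enough to be tested among 13432 tested genes; the remaining member, Pdk3, did not pass that filter. Expression was measured by RNA-seq of polyadenylated RNA in mouse liver tumors and nontumor liver, with 4 libraries in each of 4 groups. The KD tumor and KD nontumor groups came from mice fed a ketogenic diet (0.1% carbohydrate, 89.5% fat and 10.4% protein), and the ND tumor and ND nontumor groups from mice fed a normal diet. The design allows tumor to be compared with nontumor liver on each diet, and the ketogenic diet with the normal diet in each tissue.

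Every group, nontumor liver included, came from mice that had received the same plasmids by hydrodynamic delivery, in which a large volume pushed quickly into the circulation carries DNA into liver cells. These plasmids encoded human N-Ras (19 µg per mouse), human c-Myc (1 µg per mouse) and the Sleeping Beauty transposase (2 µg per mouse), an enzyme that inserts the transgenes into the genome. Diets began at week 4 and lasted 4 weeks, and tissue was taken at week 8 from 8 mice in all. The human transgenes were not measured here, and the promoters on the plasmids and the strain, sex and age of the mice were not given in the sources used here. The labels do not say that libraries of a group came from separate mice, so p-values measure the spread between these libraries. Nor do they give a batch.

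In the TCA cycle, citrate synthase joins acetyl-CoA to oxaloacetate, and later steps oxidise the product back to oxaloacetate, feeding electrons to the respiratory chain. Pyruvate from glycolysis crosses the inner mitochondrial membrane through the MPC1-MPC2 carrier and is turned into acetyl-CoA by the pyruvate dehydrogenase complex, which kinases (PDKs) switch off and phosphatases (PDPs) switch on; fatty acid oxidation supplies acetyl-CoA without passing through that complex. Paired cytosolic and mitochondrial forms of malate dehydrogenase and of aspartate aminotransferase make up the malate-aspartate shuttle, which moves reducing equivalents into mitochondria, and the liver uses the same reactions in gluconeogenesis and nitrogen disposal.

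Levels are TPM, a read number per transcript length scaled to the library total, divided here by a median-of-ratios factor per library and called rescaled TPM. Recovered reads over the listed genes numbered 3420880 to 12892444 per library, lowest in ND nontumor 4. The listed genes held 7.38% of the TPM total in ND nontumor 4, against 49.96% to 88.45% in the other 15 libraries, which is why values were rescaled. KD nontumor 3 and 4 stood apart from KD nontumor 1 and 2: both lay below both of those in 15 of the 31 members and above both in 5 (Idh3g, Dlst, Pdhb, Pdk1 and Got1), and their deviations from the mean of all libraries rose with transcript length across genes (Spearman's rho 0.209 and 0.181, against -0.07 and -0.081 in KD nontumor 1 and 2). A positive trend of that kind was also present in ND nontumor 1 (0.206), ND nontumor 4 (0.146) and ND tumor 3 (0.132). All 10 hepatocyte markers were detected in every group, and their summed rescaled TPM ranged over 124704–186917 in KD tumors, 28307–82639 in KD nontumor liver, 69764–126012 in ND tumors and 44570–81699 in ND nontumor liver. Single hepatocyte markers went both ways: 3 were called higher and 2 lower in KD tumors than in KD nontumor liver. In ND tumors 1 was called higher and 3 lower than in ND nontumor liver. Summed over 8 of 8 Kupffer cell markers, the level was 36.2–70.3 in KD tumors, 191–374 in KD nontumor liver, 18.03–41.0 in ND tumors and 352–488 in ND nontumor liver. The 6 of 6 cholangiocyte markers summed to 758–2560 in KD tumors, 38.6–261 in KD nontumor liver, 530–1963 in ND tumors, where Cftr was at 0 throughout, and 119–203 in ND nontumor liver. Only 4 cholangiocyte markers were tested, and 1 was called higher and 0 lower in KD tumors than in KD nontumor liver. Their median log2 fold change there was -0.02. In ND tumors 2 were called higher and 1 lower than in ND nontumor liver. Ranges of some other marker sums also lay apart or nearly so. Of the muscle and gut markers 5 of 6 were listed, summing to 303–445 in KD tumors and 82.6–111 in ND tumors. Myh1 was at 0 throughout both, Tnnt3 throughout KD tumors and Acta1 throughout ND tumors. The 6 of 6 neutrophil markers summed to 38.4–96.0 in KD tumors, where Ly6g was at 0 throughout, and to 7.42–44.5 in ND tumors. Of 4 neutrophil markers tested, 1 was called higher in KD tumors than in ND tumors and 0 lower. Endothelial markers, 8 of 8, summed to 85.4–129.8 in KD tumors and 132.5–199.1 in ND tumors. Of these, 2 were called higher and 3 lower in KD tumors than in ND tumors. In KD tumors, against KD nontumor liver, 8 of 8 stellate and fibroblast markers summed to 126–299 and 42.2–91.5, with 4 called higher and 1 lower. In the same order, 8 of 8 monocyte and macrophage markers summed to 107–188 and 65.9–104, and 7 of 8 T and NK cell markers to 11.4–28.0 and 3.765–10.1. Of the red blood cell genes 5 of 6 were listed, with sums of 273–1396 in ND tumors and 1204–6729 in ND nontumor liver. The part of these cell markers in the results below was not tested, and in bulk tissue fewer cells of a type and less RNA per cell cannot be told apart.

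ND tumors had the lowest median level of the 4 groups in 22 of the 31 members. KD nontumor liver had the highest median in 13 members, KD tumors in 12, ND nontumor liver in 5 and ND tumors in 1 (Pdp1). The summed rescaled TPM of the 31 genes was 1903.5 ± 154.2 in KD tumors, 1650.9 ± 292.1 in KD nontumor liver, 1153.4 ± 166.1 in ND tumors and 1501.3 ± 272.5 in ND nontumor liver (SD, n = 4 each). KD and ND tumors did not overlap in that sum (1771.7–2104.4 against 1040.1–1397.0), nor did KD tumors and ND nontumor liver (highest ND nontumor value 1759.2); every other pair of groups overlapped. Per transcript length, the most abundant members over all 16 libraries were Glud1, the mitochondrial glutamate dehydrogenase (median 354 rescaled TPM), Idh1, the cytosolic NADP isocitrate dehydrogenase (124), Mdh1, the cytosolic malate dehydrogenase (116.0), and Fh1, fumarase (86.8). Pdk3 was the least abundant, with 0 to 19 reads per library and no read in 4 libraries.

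**Figure D1:**
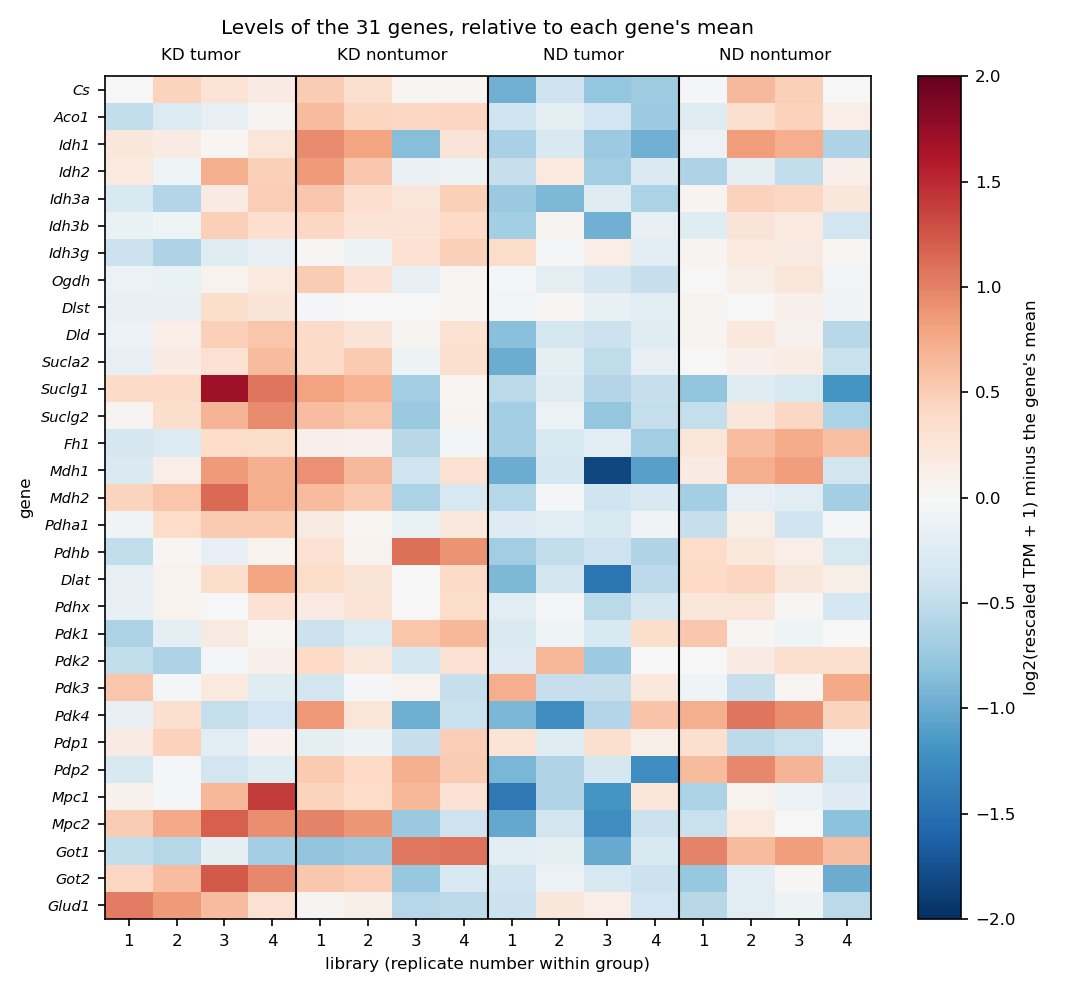
Levels of the 31 genes (rows, in order of their roles) in the 16 libraries (columns, numbered within each group), as log2(rescaled TPM + 1) minus the gene's mean over all libraries. The ND tumor columns, with much blue (low), have the lowest group median in 22 genes, and KD nontumor 3 and 4 differ visibly from KD nontumor 1 and 2.

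On the normal diet, tumors had less messenger RNA than nontumor liver for citrate synthase, fumarase and the catalytic subunit of the NAD isocitrate dehydrogenase, enzymes of the cycle. Outside the cycle itself, the cytosolic shuttle enzymes Mdh1 and Got1 and 2 core subunits of pyruvate dehydrogenase were also lower. In all, 10 of 30 tested members fell and 0 rose (limma on log2(rescaled TPM + 1), Benjamini-Hochberg adjusted p under 0.05 over all 13432 genes). Across all tested genes 14.2% were called lower and 14.5% higher, 28.7% in either direction, so the share of members called in either direction (33.3%) is near the background while all of the calls lie on the lower side. At an unadjusted p under 0.05 there were 11 members and 39.8% of all genes. The median log2 fold change was -0.41 over the 30 members and 0.00 over all tested genes.

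Citrate synthase (Cs, chromosome 10, 128337734–128362479, plus strand, GRCm38), which makes citrate, had 13.5, 20.4, 15.7 and 16.3 rescaled TPM in the ND tumors, against 26.6, 43.3, 38.5 and 27.2 in ND nontumor liver. Every ND tumor lay below every ND nontumor library, and the log2 fold change was -0.98 ± 0.19 (SE; limma adjusted p = 0.00097). Dlat (chromosome 9, 50634633–50659780, minus strand), the acetyltransferase core of pyruvate dehydrogenase, had 4.02, 6.20, 2.39 and 5.48 rescaled TPM in the ND tumors, against 11.3, 11.6, 9.86 and 9.12 in ND nontumor liver. These groups also did not overlap, with a log2 fold change of -1.11 ± 0.23 (limma adjusted p = 0.0020). Mdh1 (chromosome 11, 21556787–21572367, minus strand) had 51.8, 81.8, 28.7 and 48.6 rescaled TPM in the ND tumors, against 117.5, 173, 188 and 80.5 in ND nontumor liver. ND tumor 2 was slightly above ND nontumor 4, so the groups overlapped, and the log2 fold change was -1.41 ± 0.36 (limma adjusted p = 0.0081).

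Cs, Mdh1 and Dlat were called both here and between the tumors of the diets described below. For Cs and Dlat among them, the 250 bases before the RefSeq start sites are shown, 5′ to 3′, with capitals marking the motif CCAAT. On GRCm38.p6, the Cs window is at chr10:128337477-128337726, plus strand, and the Dlat window at chr9:50659781-50660030, minus strand.
Cs: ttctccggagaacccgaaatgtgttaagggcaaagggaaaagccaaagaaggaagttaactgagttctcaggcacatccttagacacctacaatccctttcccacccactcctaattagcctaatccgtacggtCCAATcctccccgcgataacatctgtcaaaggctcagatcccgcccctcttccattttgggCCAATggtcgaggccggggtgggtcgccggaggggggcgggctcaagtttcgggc
Dlat: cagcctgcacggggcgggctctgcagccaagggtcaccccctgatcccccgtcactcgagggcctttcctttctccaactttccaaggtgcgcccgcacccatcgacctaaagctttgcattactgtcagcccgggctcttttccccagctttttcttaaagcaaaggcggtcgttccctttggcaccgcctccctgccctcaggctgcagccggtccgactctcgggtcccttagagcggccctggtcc
The Cs window holds 2 matches to CCAAT on the strand shown or its complement, and the Dlat window none. Among 29 members with a RefSeq promoter (250 bases before to 50 after the start; Idh3a and Pdp1 were not matched), CCAAT on either strand was in a promoter of 18, and it is in a promoter of 41.06% of the 27025 genes with windows of the same length (37.41% of 32851 promoters). CACGTG, the E-box that MYC with MAX is known to bind, was in 3 members (Ogdh, Pdk2 and Pdp2) and in 8.09% of all genes (7.15% of promoters). AAGGTCA, the half-site of estrogen-related receptors, which are known regulators of TCA cycle genes, was in 2 members (Ogdh and Got1) and in 5.38% of all genes (4.72% of promoters). A letter match in such a window is a description of the sequence.

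Among the other early steps, Aco1, the cytosolic aconitase that also binds iron-responsive RNA elements, fell in ND tumors (log2 fold change -0.59 ± 0.18, limma adjusted p = 0.018). Idh3a, the catalytic subunit of the NAD isocitrate dehydrogenase, averaged 7.04 ± 1.61 rescaled TPM in ND tumors and 13.96 ± 1.89 in ND nontumor liver (SD, n = 4 each), with no overlap and a limma adjusted p of 0.0040. The other subunits of that enzyme, Idh3b and Idh3g, had log2 fold changes of -0.40 and -0.05 and did not pass. Fh1, which hydrates fumarate to malate, averaged 62.1 ± 11.0 rescaled TPM in ND tumors and 127 ± 17.9 in ND nontumor liver, again without overlap (log2 fold change -1.02 ± 0.21, limma adjusted p = 0.0020). The mitochondrial malate dehydrogenase Mdh2 was close to equal, at 38.1 ± 6.08 in ND tumors and 35.6 ± 7.18 in ND nontumor liver (adjusted p = 0.80 by limma).

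At the pyruvate step, Pdhb, the beta subunit of the E1 enzyme, had 36.2, 41.6, 44.3 and 38.8 rescaled TPM in the ND tumors, against 76.7, 68.7, 64.7 and 47.3 in ND nontumor liver. The groups did not overlap, and the log2 fold change was -0.65 ± 0.22 (limma adjusted p = 0.039). Its partner subunit Pdha1 averaged 11.2 ± 0.836 in ND tumors and 11.48 ± 2.44 in ND nontumor liver. Pdk4, a kinase of the complex known to be induced by fasting and fatty acids, had 1.04, 0.63, 1.56 and 4.71 rescaled TPM in the ND tumors, against 5.40, 7.04, 6.30 and 4.23 in ND nontumor liver. ND tumor 4 lay within the nontumor range and the other 3 tumors below it (log2 fold change -1.33 ± 0.39, limma adjusted p = 0.016); 11 to 120 reads per library lay behind these values. Pdp2, a phosphatase that reactivates the complex, averaged 3.30 ± 1.13 in ND tumors and 9.51 ± 3.54 in ND nontumor liver (log2 fold change -1.25 ± 0.25, limma adjusted p = 0.0012). The abundant kinase Pdk2 (51.0 ± 21.6 in ND tumors, 58.8 ± 6.05 in ND nontumor liver), Pdk1 and the phosphatase Pdp1 did not pass. Got1, the cytosolic aspartate aminotransferase, had 36.2, 36.8, 20.3 and 33.8 rescaled TPM in the ND tumors, against 84.2, 65.5, 75.6 and 64.8 in ND nontumor liver. All 4 ND tumors were below all 4 ND nontumor libraries (log2 fold change -1.19 ± 0.37, limma adjusted p = 0.023). Its mitochondrial counterpart Got2 (70.1 ± 7.05 in ND tumors and 64.3 ± 20.8 in ND nontumor liver) and Glud1 (337 ± 78.7 and 283 ± 45.7, in the same order) did not pass.

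On the deposited TPM without rescaling, 0 members were called in this comparison (1 at an unadjusted p under 0.05), all genes had a median log2 fold change of 0.43 and the members one of 0.11, so the members' median changed sign but stayed 0.32 below that of all genes. On the same scale with ND nontumor 4 left out, 13 members fell and 0 rose, and all 10 of the genes above were among them. The median log2 fold change there was -0.66 over the members and -0.11 over all genes. The exclusion was chosen after the values were seen. With all listed genes scaled to a common sum, 7 fell and 0 rose (median -0.167 over the members and 0.205 over all genes). Aco1 is the only one of the 10 whose direction turned, with a log2 fold change of 0.02 on the deposited scale. With trends on transcript length and GC content removed, all 10 were called. With each library left out in turn, 6 of the 10 kept their call throughout (Cs, Idh3a, Fh1, Mdh1, Dlat and Pdp2).

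**Figure D2:**
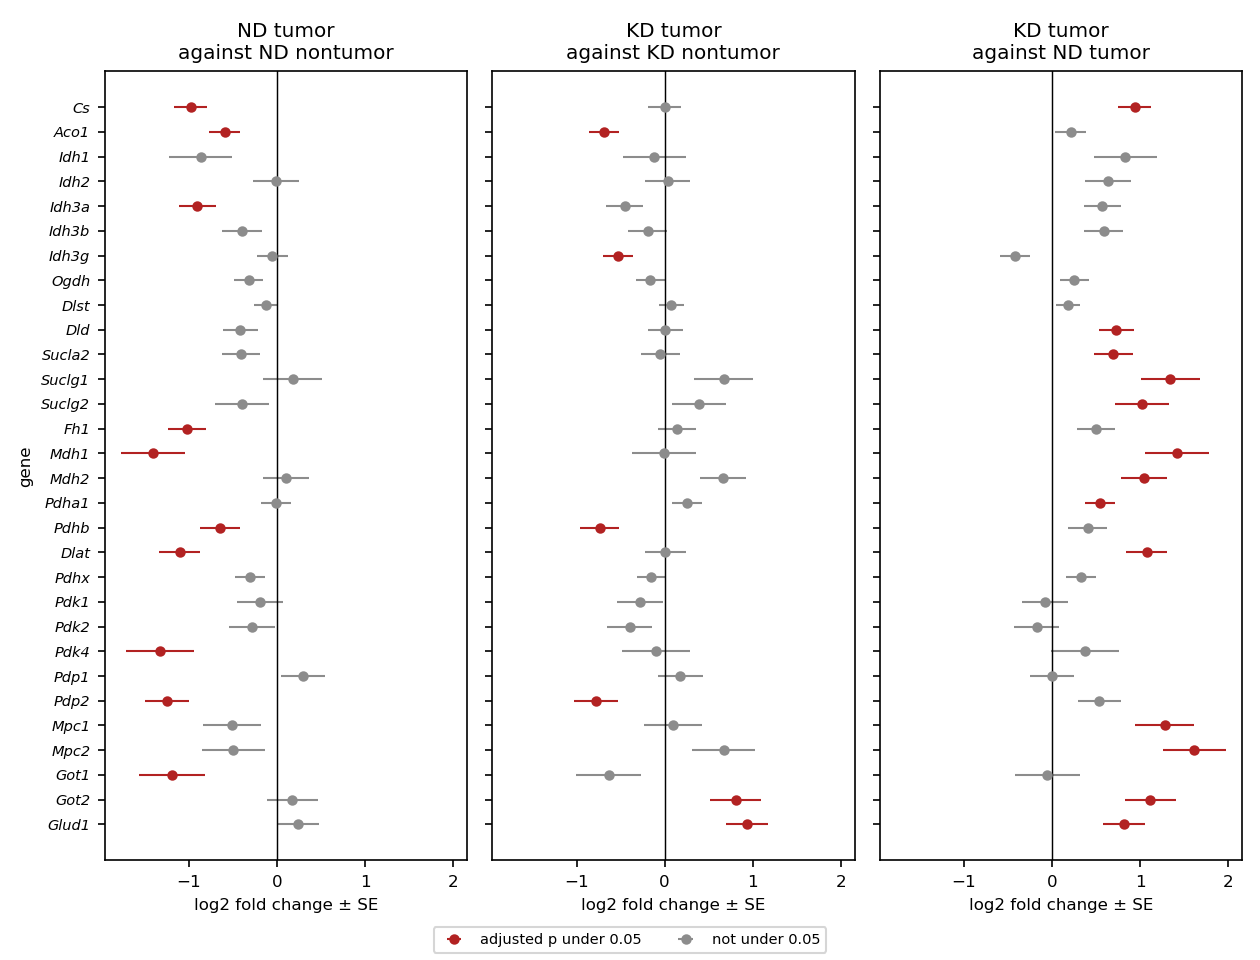
Log2 fold changes of the 30 tested members (points, on the log2(rescaled TPM + 1) scale) with their standard errors, for ND tumor against ND nontumor, KD tumor against KD nontumor, and KD tumor against ND tumor (n = 4 libraries a group). Red points have a limma adjusted p under 0.05: 10 on the lower side in the left panel, 4 lower and 2 higher in the middle panel, and 13 on the higher side in the right panel.

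On the ketogenic diet Glud1, which releases ammonia from glutamate, and Got2 were higher in tumors than in nontumor liver, and Aco1, Idh3g, Pdhb and Pdp2 were lower, so 2 of 30 members rose and 4 fell (limma, adjusted p under 0.05 over all tested genes). The background was 16.3% of genes higher and 16.2% lower, 32.5% in either direction, and 6 of 30 members called is below that share. Groups did not overlap for 1 member on the higher and 3 on the lower side, against 15.8% and 17.3% of all genes. The median log2 fold change was -0.01 over the members and 0.01 over all tested genes. Aco1, Pdhb and Pdp2 were called lower in tumors on both diets, in comparisons that share no library but share the estimate of the spread from the same fit. With each library left out in turn, Pdp2 alone of these kept its call throughout on the normal diet, and Aco1 alone on the ketogenic diet.

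Glud1 (chromosome 14, 34310727–34345265, plus strand) had 726, 646, 556 and 442 rescaled TPM in the KD tumors, against 373, 388, 240 and 248 in KD nontumor liver. The lowest KD tumor was above the highest KD nontumor library, and the log2 fold change was 0.93 ± 0.24 (limma adjusted p = 0.0072). Got2 had 116, 133, 205 and 170 rescaled TPM in the KD tumors, against 127, 123, 51.3 and 70.3 in KD nontumor liver. KD tumor 1 lay below KD nontumor 1 and 2, so the groups overlapped, with a log2 fold change of 0.81 ± 0.29 (limma adjusted p = 0.043). Aco1 had 25.6, 29.7, 32.2 and 37.8 rescaled TPM in the KD tumors, against 56.5, 49.0, 48.3 and 48.9 in KD nontumor liver. All KD tumors were lower, by a log2 fold change of -0.69 ± 0.18 (limma adjusted p = 0.0069).

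Idh3g, a regulatory subunit of the NAD isocitrate dehydrogenase, averaged 57.7 ± 7.95 rescaled TPM in KD tumors and 84.4 ± 15.8 in KD nontumor liver, without overlap (limma adjusted p = 0.026). Pdhb had 41.6, 59.8, 52.3 and 62.1 in the KD tumors, against 72.8, 61.7, 128 and 111 in KD nontumor liver. KD tumor 4 lay just above KD nontumor 2, and the log2 fold change was -0.74 ± 0.22 (limma adjusted p = 0.019). Pdp2 averaged 5.09 ± 0.644 in KD tumors and 9.43 ± 0.933 in KD nontumor liver, without overlap (log2 fold change -0.78 ± 0.25, limma adjusted p = 0.023). Cs, Dlat, Mdh1 and Fh1 did not pass here. The log2 fold change between KD tumor and KD nontumor liver was 0.00 for Cs (95% confidence interval -0.40 to 0.40), 0.01 for Dlat (-0.48 to 0.50), -0.01 for Mdh1 (-0.78 to 0.76) and 0.14 for Fh1 (-0.32 to 0.59).

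These counts depended on the KD nontumor libraries. With KD nontumor 3 and 4 left out, only Aco1 was called lower and no member higher, and with KD nontumor 1 and 2 left out instead, 5 members rose and 6 fell; both choices followed the sight of the values. Leaving out KD nontumor 3 alone left 2 calls, KD nontumor 4 alone 3, and KD tumor 1 alone 3. On the deposited TPM 0 members were called (1 at an unadjusted p under 0.05, all-gene median -0.26). With ND nontumor 4 also left out, 0 rose and 7 fell, and Got2 and Glud1 lost their calls. The all-gene median there was -0.26 and the members' median -0.32. With a common sum 1 rose (Glud1) and 7 fell, and with the length and GC trends removed all 6 were called.

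Tumors of mice on the ketogenic diet had higher levels of genes for citrate synthesis, succinyl-CoA ligase, malate dehydrogenase, the pyruvate carrier and 2 of the 4 core subunits of pyruvate dehydrogenase than tumors of mice on the normal diet. In KD tumors against ND tumors 13 of 30 members rose and 0 fell (limma, adjusted p under 0.05 over all tested genes). The background was 7.15% of genes higher and 8.67% lower, 15.8% in either direction, against 43.3% of members called higher, and at an unadjusted p under 0.05 there were 20 members and 32.8% of all genes. The median log2 fold change was 0.58 over the members and 0.03 over all tested genes. Since this comparison and that of ND tumor with ND nontumor liver use the same ND tumor libraries, the sets of values are not independent, and Cs, Mdh1 and Dlat were called in both.

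Cs had 27.5, 37.6, 33.3 and 30.96 rescaled TPM in the KD tumors, against 13.5, 20.4, 15.7 and 16.3 in the ND tumors. The groups did not overlap, and the log2 fold change was 0.94 ± 0.19 (limma adjusted p = 0.0052). Dlat had 7.33, 8.75, 10.9 and 15.1 rescaled TPM in the KD tumors, against 4.02, 6.20, 2.39 and 5.48 in the ND tumors, also without overlap (1.07 ± 0.23, limma adjusted p = 0.0077). Mdh1 had 85.6, 114.5, 190 and 172 rescaled TPM in the KD tumors, against 51.8, 81.8, 28.7 and 48.6 in the ND tumors. KD tumor 1 was just above ND tumor 2, and the log2 fold change was 1.42 ± 0.36 (limma adjusted p = 0.017). For Cs the mean of KD tumors lay close to those of nontumor liver, at 32.4 ± 4.24 in KD tumors, 32.5 ± 5.37 in KD nontumor liver and 33.9 ± 8.30 in ND nontumor liver (SD, n = 4 each).

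Both subunits of the carrier that brings pyruvate into mitochondria rose. Mpc2 (chromosome 1, 165460637–165481214, plus strand) had 31.8, 38.2, 52.0 and 43.0 rescaled TPM in the KD tumors, against 10.4, 16.9, 8.82 and 16.1 in the ND tumors. The lowest KD tumor was well above the highest ND tumor, and the log2 fold change of 1.61 ± 0.36 was the largest of the 30 members (limma adjusted p = 0.0087). Mpc1 had 11.7, 10.7, 17.8 and 30.4 rescaled TPM in the KD tumors, against 3.42, 6.85, 4.20 and 13.0 in the ND tumors. ND tumor 4 lay above KD tumor 1 and 2, so these groups overlapped (1.28 ± 0.33, limma adjusted p = 0.019).

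All 3 subunits of succinyl-CoA ligase, which makes ATP or GTP within the cycle, were higher in KD tumors. Suclg1, the subunit that both forms of the enzyme share, had 25.4, 25.4, 64.5 and 41.6 rescaled TPM in the KD tumors, against 12.9, 16.2, 12.4 and 13.7 in the ND tumors. KD tumor 3 was the highest library and no KD tumor overlapped the ND tumors (log2 fold change 1.34 ± 0.33, limma adjusted p = 0.016). The GTP-specific subunit Suclg2 averaged 84.1 ± 22.6 in KD tumors and 40.3 ± 8.66 in ND tumors (limma adjusted p = 0.034), and the ATP-specific subunit Sucla2 18.4 ± 4.37 and 11.1 ± 2.92, in the same order (limma adjusted p = 0.041). Of the oxoglutarate dehydrogenase complex, Dld, the E3 subunit that pyruvate dehydrogenase also uses, averaged 25.3 ± 5.43 in KD tumors and 14.8 ± 2.67 in ND tumors (limma adjusted p = 0.023). Its partners Ogdh and Dlst had log2 fold changes of 0.25 and 0.18 and did not pass.

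Mdh2 averaged 80.4 ± 17.8 rescaled TPM in KD tumors and 38.1 ± 6.08 in ND tumors (log2 fold change 1.04 ± 0.26, limma adjusted p = 0.016). Got2 had 116, 133, 205 and 170 rescaled TPM in the KD tumors, against 66.0, 80.2, 69.6 and 64.5 in the ND tumors. No library overlapped, and the log2 fold change was 1.12 ± 0.29 (limma adjusted p = 0.019). Glud1 had 726, 646, 556 and 442 in the KD tumors, against 265, 418, 391 and 274 in the ND tumors, with KD tumor 4 only slightly above ND tumor 2 (0.82 ± 0.24, limma adjusted p = 0.031). Pdha1, the E1 alpha subunit whose phosphorylation sets the activity of the complex, averaged 17.0 ± 3.19 in KD tumors and 11.2 ± 0.836 in ND tumors (0.54 ± 0.17, limma adjusted p = 0.040).

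None of the tested kinases and phosphatases of pyruvate dehydrogenase passed between the tumor groups. Pdk4 had 2.45, 3.81, 1.76 and 1.96 rescaled TPM in the KD tumors, against 1.04, 0.63, 1.56 and 4.71 in the ND tumors, and ND tumor 4 lay above all KD tumors. Its log2 fold change was 0.37 with a 95% confidence interval of -0.45 to 1.19. The intervals were -0.63 to 0.48 for Pdk1, -0.72 to 0.37 for Pdk2, -0.54 to 0.53 for Pdp1 and 0.02 to 1.06 for Pdp2, the last with an adjusted p of 0.14 by limma. Got1 was at 30.0 ± 4.71 in KD tumors and 31.8 ± 7.74 in ND tumors, with an interval of -0.84 to 0.73. Idh1 had no overlap between KD and ND tumors (119–137 against 58.6–94.0 rescaled TPM) but an adjusted p of 0.12 by limma. Counting groups without overlap, 13 of 30 members were higher and 0 lower in KD tumors, where 12.2% and 10.7% of all tested genes were; 12 of these 13 were also called.

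**Figure D3:**
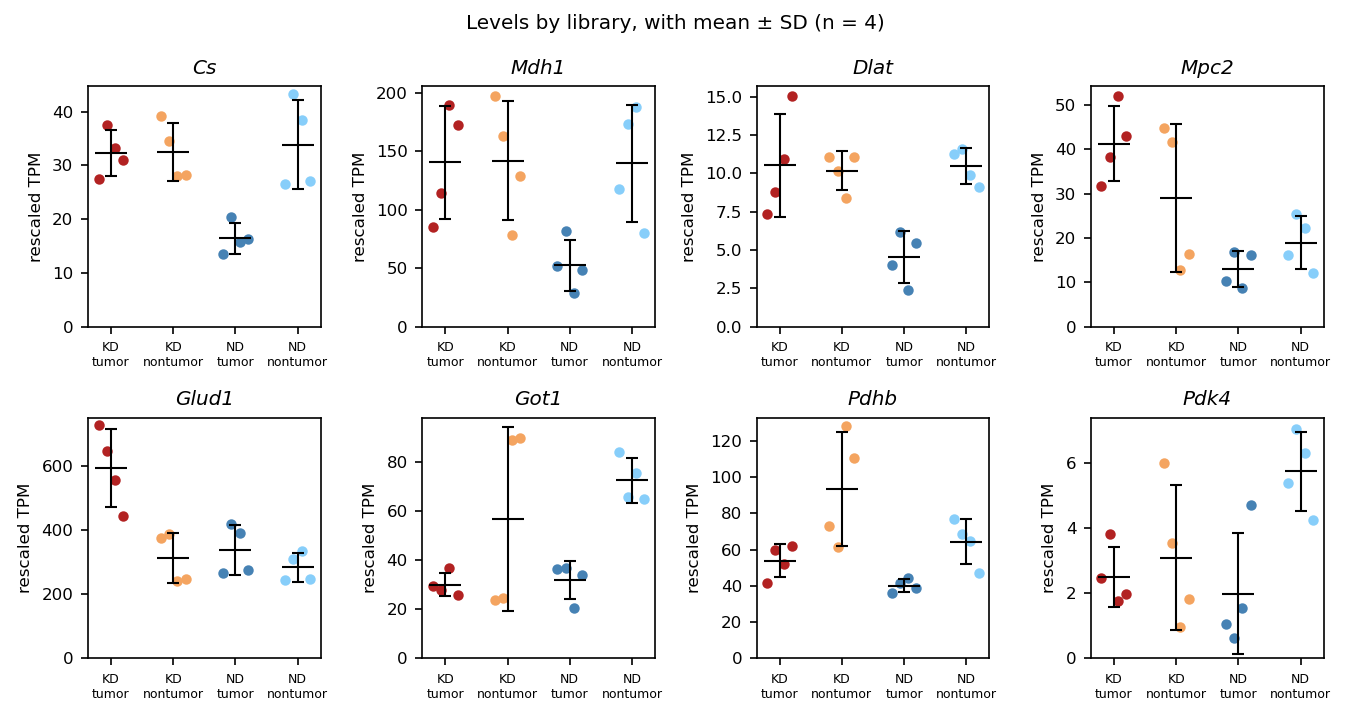
Rescaled TPM of 8 members in each library (dots), with the group mean and SD (black, n = 4). For Cs, Mdh1 and Dlat the ND tumors sit lowest; for Mpc2 and Glud1 the KD tumors lie above the ND tumors; for Got1 and Pdhb, KD nontumor 3 and 4 lie far above KD nontumor 1 and 2.

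Single tumors carried part of this count. Leaving out KD tumor 3 left 3 members called (Cs, Dlat and Mpc2), leaving out KD tumor 4 left 6, and leaving out ND tumor 1 left 7. Transcript length correlated negatively across genes with the deviations of all 4 KD tumors (Spearman's rho -0.245 to -0.096), against -0.07 to 0.132 in the ND tumors, and with the length and GC trends removed 10 members rose and 0 fell. On the deposited TPM 0 of 30 members were called (5 at an unadjusted p under 0.05), although the medians hardly moved (0.55 over members and 0.00 over all genes), and with ND nontumor 4 also left out 10 rose and 0 fell. With a common sum of the listed genes 5 rose (Mpc2, Mdh2, Suclg1, Got2 and Mdh1) and 2 fell (Idh3g and Pdk2), on a scale where the all-gene median was -0.33. The members' median lay 0.55, 0.55 and 0.50 above that of all genes on the rescaled, deposited and common-sum scales, listed in that order. The hepatocyte marker sums given above had medians of 140310 in KD tumors and 75664 in ND tumors, with ranges that overlapped slightly. Of the 10 hepatocyte markers, 1 was called higher in KD tumors than in ND tumors and 0 lower.

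In nontumor liver no member was called between the diets (0 of 30 by limma, with 0.0521% of all genes called, 0.00744% higher and 0.0447% lower). At an unadjusted p under 0.05 there were 5 members, against 8.87% of all genes, and fitting the recovered reads with voom gave 5 at an unadjusted p and 0 after adjustment. Fh1 had 91.5, 91.1, 57.7 and 82.6 rescaled TPM in KD nontumor liver, against 102, 132, 144 and 130 in ND nontumor liver. It did not overlap but had an adjusted p of 0.32 by limma (log2 fold change -0.66, 95% confidence interval -1.11 to -0.20). Idh3b and Mpc1 were higher without overlap; Mpc1 averaged 15.2 ± 1.82 in KD nontumor liver and 9.28 ± 2.02 in ND nontumor liver (adjusted p = 0.59 by limma). No overlap on the higher side was seen in 3.12% of all tested genes and on the lower side in 2.83%. Pdk4 had 6.0, 3.55, 0.96 and 1.82 in KD nontumor liver, against 5.40, 7.04, 6.30 and 4.23 in ND nontumor liver (log2 fold change -0.87, interval -1.69 to -0.05, adjusted p = 0.52 by limma). Got1 had 23.8, 24.7, 88.7 and 89.9 in KD nontumor liver, a split within the group, against 84.2, 65.5, 75.6 and 64.8 in ND nontumor liver, and with KD nontumor 3 and 4 left out it was called lower.

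Whether the difference between tumor and nontumor liver itself depended on diet was tested as the interaction, the log2 fold change of tumor over nontumor on the ketogenic diet minus that on the normal diet. No member passed (0 of 30 by limma, 0.61% of all genes called, 0.201% positive and 0.409% negative), while 6 had an unadjusted p under 0.05 (18.0% of all genes did) and voom gave 5 and 0. The 6 were Fh1 (1.16 ± 0.30, limma adjusted p = 0.085), Cs (0.98 ± 0.27, 0.088), Dlat (1.11 ± 0.33, 0.11), Mdh1 (1.40 ± 0.51, 0.18), Mpc2 (1.17 ± 0.50, 0.24) and Pdk4 (1.24 ± 0.55, 0.25). The median interaction was 0.47 over the members and 0.00 over all genes, but on the deposited TPM it was -0.40 over the members and -0.67 over all genes. With KD nontumor 1 and 2 left out, Mpc2, Fh1, Mdh2, Pdk4, Cs and Mdh1 were called, all positive, and with KD nontumor 3 and 4 left out none was. The median interaction was 0.50 over the members and -0.02 over all genes in the first of these fits. In the second it was 0.28 and 0.01. Shares of all genes called in these fits and under voom are not given here, so those member counts have no background beside them. A call in ND tumors that is missing in KD tumors is therefore not shown to differ between the diets.

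The 9 members called in none of the 5 tests were Idh1, Idh2, Idh3b, Ogdh, Dlst, Pdhx, Pdk1, Pdk2 and Pdp1. Idh1, which makes NADPH in the cytosol, had 224, 201, 63.7 and 138 rescaled TPM in KD nontumor liver and 107, 207, 191 and 75.4 in ND nontumor liver, a wide spread within each group, whereas its mitochondrial counterpart Idh2 averaged 44.6 ± 10.6 in KD tumors, 44.6 ± 15.7 in KD nontumor liver, 28.6 ± 8.07 in ND tumors and 28.7 ± 6.72 in ND nontumor liver. Dlst, the succinyltransferase core of the oxoglutarate dehydrogenase complex, averaged 29.9 ± 5.62 in KD tumors, 28.0 ± 0.69 in KD nontumor liver, 26.0 ± 2.09 in ND tumors and 28.4 ± 1.43 in ND nontumor liver. Its E1 subunit Ogdh averaged 44.8 ± 5.13, 50.8 ± 10.4, 37.5 ± 5.25 and 46.9 ± 4.43 in the same 4 groups, and Pdhx, which anchors the E3 subunit to pyruvate dehydrogenase, 7.66 ± 1.13, 8.59 ± 1.02, 5.90 ± 0.999 and 7.62 ± 1.56. Group means of Pdk1 lay between 9.98 and 12.8 rescaled TPM and those of Pdk2 between 43.2 and 58.8, and Pdp1, with 7 to 42 reads per library, averaged 0.757 to 1.12.

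Ratios of related genes within a library need no scaling between libraries. For 8 such ratios in the 4 pairwise comparisons, 4 of 32 tests had no overlap between groups, each at the smallest p the design allows (two-sided exact permutation test over 70 assignments, p = 0.0286), and 0 passed adjustment over the 32 (adjusted p = 0.20). With that smallest p, a ratio could pass only if many of the 32 tests reached it. The adjusted result therefore does not decide whether a ratio differs. Mdh2 over Mdh1, the mitochondrial over the cytosolic malate dehydrogenase, was 0.566–1.261 in ND tumors, against 0.219–0.364 in ND nontumor liver, and 0.464–0.766 in KD tumors, against 0.295–0.424 in KD nontumor liver. The ratio was thus higher in every tumor than in every nontumor library of the same diet, by 1.53 and 0.68 on the log2 scale on the normal and the ketogenic diet. Got2 over Got1, the mitochondrial over the cytosolic aminotransferase, was 1.824–3.422 in ND tumors, against 0.607–1.169 in ND nontumor liver. In KD tumors it was 3.942–6.544, above all ND tumors, whereas KD nontumor liver spread over 0.578–5.354. The kinases over the phosphatases of pyruvate dehydrogenase, Idh2 over Idh1, Suclg2 over Sucla2, Pdp2 over Pdp1, Pdk4 over the other kinases and Mpc2 over Mpc1 overlapped in every comparison.

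**Figure D4:**
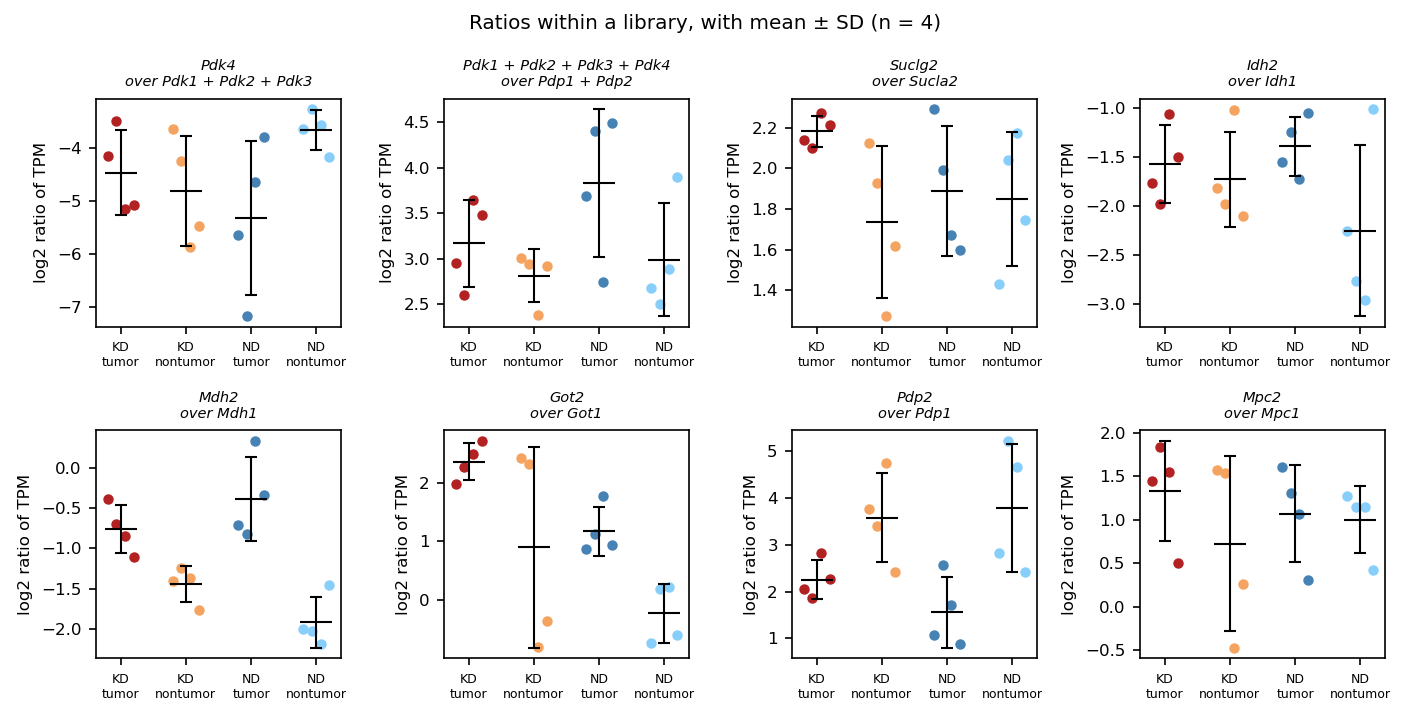
Log2 ratios of TPM for 8 pairs or sums of members within each library (dots), with the group mean and SD (black, n = 4). Mdh2 over Mdh1 is higher in tumors than in nontumor liver of the same diet, and Got2 over Got1 is highest in KD tumors apart from KD nontumor 1 and 2, which reach into their range.

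Around these members, 32 further genes of the cycle and its shuttles were listed and 28 of them tested. In ND tumors against ND nontumor liver 2 rose and 11 fell, in KD tumors against KD nontumor liver 4 rose and 7 fell, in KD against ND tumors 7 rose and 0 fell, and between the nontumor groups 0 were called (3 at an unadjusted p under 0.05; limma, against the backgrounds given above). On the deposited TPM the first of these counts was 1 higher and 3 lower, the second 0 and 2, and the third 0 and 0 (3 at an unadjusted p under 0.05); with a common sum they were 2 and 8, 2 and 10, and 3 and 1. Leaving out KD tumor 3 left 4 higher and 0 lower in KD against ND tumors. The steepest falls were in Pck1, the cytosolic gluconeogenic phosphoenolpyruvate carboxykinase, which averaged 392 ± 66.7 rescaled TPM in ND tumors and 4199 ± 646 in ND nontumor liver (log2 fold change -3.42), and 666 ± 337 in KD tumors and 3487 ± 764 in KD nontumor liver (-2.52). Its mitochondrial counterpart Pck2 rose, with 9.87 ± 1.54 in ND tumors and 2.46 ± 0.391 in ND nontumor liver (1.65), and 8.48 ± 2.80 in KD tumors and 2.80 ± 1.27 in KD nontumor liver (1.33). Slc25a22, a mitochondrial glutamate carrier, fell in tumors on both diets (-1.90 on the normal and -1.55 on the ketogenic diet), as did Dhtkd1, the oxoadipate dehydrogenase (-2.57 and -1.97). Gpt, the cytosolic alanine aminotransferase, Slc25a10, the dicarboxylate carrier, and Pdpr, a regulator of pyruvate dehydrogenase phosphatase, were also lower in tumors on both diets, and Slc25a1, the citrate carrier, was higher on both (0.74 on the normal and 0.91 on the ketogenic diet). The malic enzyme Me1 (-1.39) and the aspartate-glutamate carrier Slc25a13 (-1.01) were called lower on the normal diet; Gpt kept no such direction on the deposited TPM on the normal diet, where its log2 fold change was 0.05.

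Between KD and ND tumors, succinate dehydrogenase, the step between succinyl-CoA ligase and fumarase, had 3 of 4 subunits called higher: Sdhc (76.0 ± 11.3 in KD tumors, 31.5 ± 12.3 in ND tumors), Sdhd (85.3 ± 23.4 and 42.3 ± 8.31, in the same order) and Sdha (39.4 ± 12.8 and 21.6 ± 2.19), with limma adjusted p of 0.024, 0.0057 and 0.024. Also higher were both glycerol phosphate shuttle enzymes Gpd1 (log2 fold change 0.96) and Gpd2 (1.46), the alanine aminotransferase Gpt2 (0.91) and the glutamine synthetase Glul (1.69). Gpt2 was also called higher in KD tumors than in KD nontumor liver (0.88, limma adjusted p = 0.0014). Gpd1 was called lower in ND tumors than in ND nontumor liver (-0.78, limma adjusted p = 0.034), a comparison that uses the same ND tumor libraries. Gpd2, the mitochondrial enzyme of the glycerol phosphate shuttle, had 5.70, 8.54, 9.82 and 9.34 rescaled TPM in the KD tumors, against 5.16, 4.97, 5.55 and 5.34 in KD nontumor liver, and 2.60, 3.31, 1.20 and 2.70 in the ND tumors, against 5.44, 6.87, 5.19 and 5.20 in ND nontumor liver. It was higher in every KD tumor and lower in every ND tumor than in nontumor liver of the same diet, and its interaction passed (1.54 ± 0.29, limma adjusted p = 0.026). Glul, a marker of pericentral hepatocytes that makes glutamine, fell on both diets, to 107 ± 20.1 in KD tumors, against 252 ± 77.0 in KD nontumor liver, and to 32.2 ± 3.84 in ND tumors, against 260 ± 87.1 in ND nontumor liver. Its interaction also passed (1.72 ± 0.36, limma adjusted p = 0.042). These were the 2 interactions called among the 28 further genes tested; on the deposited TPM, with no filter on low values and with KD nontumor 3 and 4 both left out neither passed, and with a common sum 1 did. Neither passed when any single one of KD tumor 2, 3 or 4, KD nontumor 3 or 4, ND tumor 1, or ND nontumor 2 or 3 was left out.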

How the data were processed

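The deposited table holds TPM that the authors computed for 20601 genes in 16 columns, matched to samples by diet letters, tissue letter (P in the nontumor columns, N in the titles) and number. Per the submitters' processing notes, FastQC, HISAT2, SAMtools, featureCounts and the build mm10 were used, without versions; the step to TPM, the annotation, strand settings and the handling of reads shared between gene copies were not given in the sources used here.

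TPM were divided by median-of-ratios factors over 11798 genes and tested as log2(value + 1) with limma 3.58.1 (R 4.3.3, variance trend, all 16 libraries, no block), in genes with at least 1 TPM in at least 4 libraries. Fold changes on that scale understate changes of low genes. Whole reads were recovered from the TPM steps for 20600 genes (within 0.001 reads) for depth and for voom. Same-numbered tumor and nontumor libraries were not treated as pairs. No 2 libraries held identical values. Positions come from GENCODE M21, on the files' build. Members, lists, ratios and tests were chosen with earlier results of these data known. All members are named, and of the further genes those that passed; some further genes are not reported here.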

Additional observations from a re-analysis of the deposited data

Results flagged for a closer look

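Among 156 groups of 4 libraries examined for a library far from the other 3, 4 were picked out, where chance picks out about 1 in 20 groups. Aco1 was at 56.5 rescaled TPM in KD nontumor 1, against 48.3 to 49.0 in the other KD nontumor libraries. Pdk1 was at 16.4 rescaled TPM in ND nontumor 1, against 10.2 to 11.1 in the other ND nontumor libraries. The summed pyruvate dehydrogenase kinases over the summed phosphatases (Pdk1 + Pdk2 + Pdk3 + Pdk4 over Pdp1 + Pdp2) were 5.19 in KD nontumor 3, against 7.53 to 8.06 in the other KD nontumor libraries. Mpc2 over Mpc1 was 1.35 in ND nontumor 4, the library of lowest depth, against 2.21 to 2.41 in the other ND nontumor libraries.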

How the results depend on the processing

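On the deposited TPM, 0 members were called in ND tumor against ND nontumor, KD tumor against KD nontumor and KD tumor against ND tumor, and the log2 fold changes of Aco1 (0.0194) and of the further gene Gpt (0.0512) in ND tumor against ND nontumor turned positive. With a common sum 7 members were called in KD tumor against ND tumor. KD tumor against KD nontumor had 3 calls in a fit of those groups alone, 1 without KD nontumor 3 and 4, and 11 without KD nontumor 1 and 2. KD nontumor against ND nontumor had 4 calls with sample weights and 1 without KD nontumor 3 and 4. The interaction had 1 with sample weights and 6 without KD nontumor 1 and 2. Leaving out each library in turn gave 7 to 12 calls in ND tumor against ND nontumor, 2 to 8 in KD tumor against KD nontumor and 3 to 14 in KD tumor against ND tumor. The cause of these shifts was not tested. Shares of all genes called are given for the main fit only. Call counts of members and further genes under other settings therefore have no background of their own. Same-numbered tumor and nontumor libraries deviated together only weakly (correlations -0.112 to 0.164), and a replicate block gave the same 10, 6, 13, 0 and 0 calls as no block. Of 6821 recomputed single values, 6477 stayed as they were, called or not called, 272 lost and 70 gained a call, and 2 called values turned. A ratio was counted as unchanged if it moved by less than the larger group SD. Values that stayed uncalled were counted as unchanged whatever their sign. Among 4799 recomputed values of genes not called in the main fit, 343 changed sign. Pdk3, Pdk4 and Pdp1 rest on few reads, which limits what can be said of them.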
